A study of Mus musculus with 10 samples.

Results

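The genes described here are the nuclear genes of the mitochondrial respiratory chain and the ATP synthase, taken by symbol: those starting with Nduf, Uqcr or Atp5, Sdha to Sdhd, Cycs, Cyc1, and Cox4 to Cox8 with a further letter or number. Of 18193 genes with a probe set of their own, 92 met this rule: 34 of complex I, 8 of its assembly factors (Ndufaf genes), 4 of complex II, 9 of complex III, cytochrome c (Cycs), 19 of complex IV and 17 of the ATP synthase. They were on 184 probe sets, of which the one with the highest mean level stood for the gene, and 40 genes had only 1. A level is a log2 value on an array whose median probe set lay between 2.82 and 2.94. Of the 92 genes, 88 passed a filter on dim values (a level above 3.94, the highest array median plus 1, on at least 1 array), while Cox4i2, Cox6b2, Cox7b2 and Ndufb4 did not. Ndufa4 and its paralog Ndufa4l2 were counted with complex IV, where the NDUFA4 protein resides.

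The respiratory chain passes electrons from NADH (complex I) and succinate (complex II) through complex III and cytochrome c to oxygen (complex IV), and the proton gradient it builds drives the ATP synthase. Tissues with high energy use, skeletal muscle among them, hold much of it. Complex IV also exchanges subunits between tissues. Cox6a2, Cox7a1 and Cox8b are forms found in heart and skeletal muscle. They are called muscle forms here, though the name does not limit them to muscle. Cox6a1, Cox7a2 and Cox8a are the forms found in most tissues.

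The study placed rat islets in a plasma-based scaffold under the skin of diabetic nude mice, either without (PSI) or with added fibroblasts (PSI-F), and took the grafts on days 1, 3, 7 and 10. RNA was hybridised to 10 arrays, 1 for each graft and day and 1 each for a subcutaneous biopsy of a healthy, untreated mouse (Control) and of a streptozotocin-treated, non-transplanted mouse (Diabetic), both at day 0. The recipients were 6-week-old male Swiss nu/nu mice, which lack a thymus, and the mice that received PSI or PSI-F had also been made diabetic with streptozotocin. The islets and the plasma came from Wistar rats, the fibroblasts were cultured from the skin of nu/nu mice, and the grafts lay directly on the abdominal muscle.

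Each condition had 1 array, and the number of mice behind it is not stated in the labels or methods. Differences between single arrays therefore have no replicate check and carry no p, and in tests over several arrays the days stand in for replicates. Where grafts were tested against biopsies, Control and Diabetic were pooled in the same group although they differ in treatment. The probes are mouse sequences, so mouse and rat RNA cannot be told apart, and in such tissue pieces fewer cells of a type and less RNA per cell cannot be told apart either. Skeletal muscle markers were bright in both biopsies and in every graft: summed over 20 genes, their log2 level was 15.61 to 16.17 in the biopsies, 15.34 to 16.04 in the grafts of days 1 and 3, and 15.90 to 16.16 in those of days 7 and 10. Islet markers summed to 5.22 to 5.55 in the biopsies and 7.97 to 10.68 in the grafts, and macrophage markers to 9.29 to 9.32 and 11.47 to 12.73.

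The promoters of the isoform pairs Cox7a1 and Cox7a2, and Cox8b and Cox8a, are shown because the muscle and general forms of complex IV separated on several arrays, as described further on. Each runs from 250 bases before to 50 bases after the start of the gene in RefSeq (GRCm38.p6), 5′ to 3′ on the strand of the gene, and capitals mark a match, on either strand, to 1 of 6 motifs searched.
Cox7a1 (muscle, chr7:30183921-30184220, plus strand): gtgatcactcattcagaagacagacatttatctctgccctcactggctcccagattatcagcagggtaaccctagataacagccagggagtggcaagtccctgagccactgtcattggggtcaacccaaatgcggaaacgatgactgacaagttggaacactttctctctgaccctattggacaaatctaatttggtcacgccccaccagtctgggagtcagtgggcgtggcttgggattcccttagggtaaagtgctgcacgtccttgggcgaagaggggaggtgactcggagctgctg
Cox8b (muscle, chr7:140900397-140900696, minus strand): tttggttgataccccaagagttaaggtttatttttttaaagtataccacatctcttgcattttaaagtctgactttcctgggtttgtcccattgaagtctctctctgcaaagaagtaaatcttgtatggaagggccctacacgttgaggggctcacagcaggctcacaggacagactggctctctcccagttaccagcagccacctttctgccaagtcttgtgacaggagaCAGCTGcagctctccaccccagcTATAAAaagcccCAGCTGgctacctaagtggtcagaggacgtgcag
Cox7a2 (general, chr9:79759804-79760103, minus strand): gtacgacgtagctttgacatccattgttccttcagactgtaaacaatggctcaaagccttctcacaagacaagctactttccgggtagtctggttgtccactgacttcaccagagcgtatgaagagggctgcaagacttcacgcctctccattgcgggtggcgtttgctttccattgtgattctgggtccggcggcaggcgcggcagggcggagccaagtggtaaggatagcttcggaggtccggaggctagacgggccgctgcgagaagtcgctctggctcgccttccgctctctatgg
Cox8a (general, chr19:7217567-7217866, minus strand): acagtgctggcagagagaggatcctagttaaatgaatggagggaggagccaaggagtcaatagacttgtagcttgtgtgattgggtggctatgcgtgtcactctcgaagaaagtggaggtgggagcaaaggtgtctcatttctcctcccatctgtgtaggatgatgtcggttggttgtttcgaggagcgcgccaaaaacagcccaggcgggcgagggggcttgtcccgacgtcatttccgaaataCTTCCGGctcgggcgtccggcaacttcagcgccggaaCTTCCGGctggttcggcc

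The Cox8b window held CAGCTG, an E-box bound by myogenic factors, at 2 places and the TATA box TATAAA between them. The Cox8a window held the ETS/GABP motif CCGGAAG at 2 places, read on the other strand as CTTCCGG. Neither Cox7a window held a match, and the CG dinucleotide occurred 7 times in the Cox7a1 window, 2 times in that of Cox8b, 20 times in that of Cox7a2 and 19 times in that of Cox8a.

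RefSeq entries were found for 75 of the 92 genes, with 80 promoters, which were set beside all 32851 promoters of the same length. The NRF1 motif (GCGCA, any base, then GCGC) was in 22.5% of the respiratory chain promoters and in 4.6% of all promoters. The ETS/GABP motif was in 23.8% and 8.86%, the YY1 motif AAGATGGC in 12.5% and 2.75%, and the ERR motif TNAAGGTCA in 3.75% and 1.28%. The E-box went the other way, with 7.5% against 16.3%, and TATAAA was in 11.2% and 13.6%. Matches of different motifs never overlapped in these promoters, and their median GC content was 59.0%, against 52.7% for all promoters. A match describes the letters of the window and is not a binding site. The genes without an entry are Cyc1, Ndufa4l2, Ndufaf6, Cox4i2, Cox6a2, Atp5a1, Uqcrb, Uqcrq, Ndufb9, Uqcrc2, Ndufa2, Sdhc, Cox6c, Cox8c, Atp5mpl, Cox4i1 and Ndufs1.

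Over the 10 arrays the respiratory chain genes varied little. The median gene had a range of 0.56 on the log2 scale from its lowest to its highest array, against 0.79 for all genes. Among genes with a mean level above 8, the ranges were 0.56 for 72 respiratory chain genes and 0.82 for all 1091. A range over 1, that is over 2-fold, was seen in 7 of the 92 genes (7.61%), against 34.7% of all genes. These were Cox7a1 (2.78), Ndufs5 (1.79), Ndufa4l2 (1.60), Cox8b (1.48), Cox7c (1.47), Cox6a2 (1.11) and the assembly factor Ndufaf1 (1.02), so that 5 of the 7 belonged to complex IV. Of these, Cox7c was on a dim probe set with a mean level of 3.57. No gene of complex II, complex III or the ATP synthase had a range over 1.

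**Figure D1:**
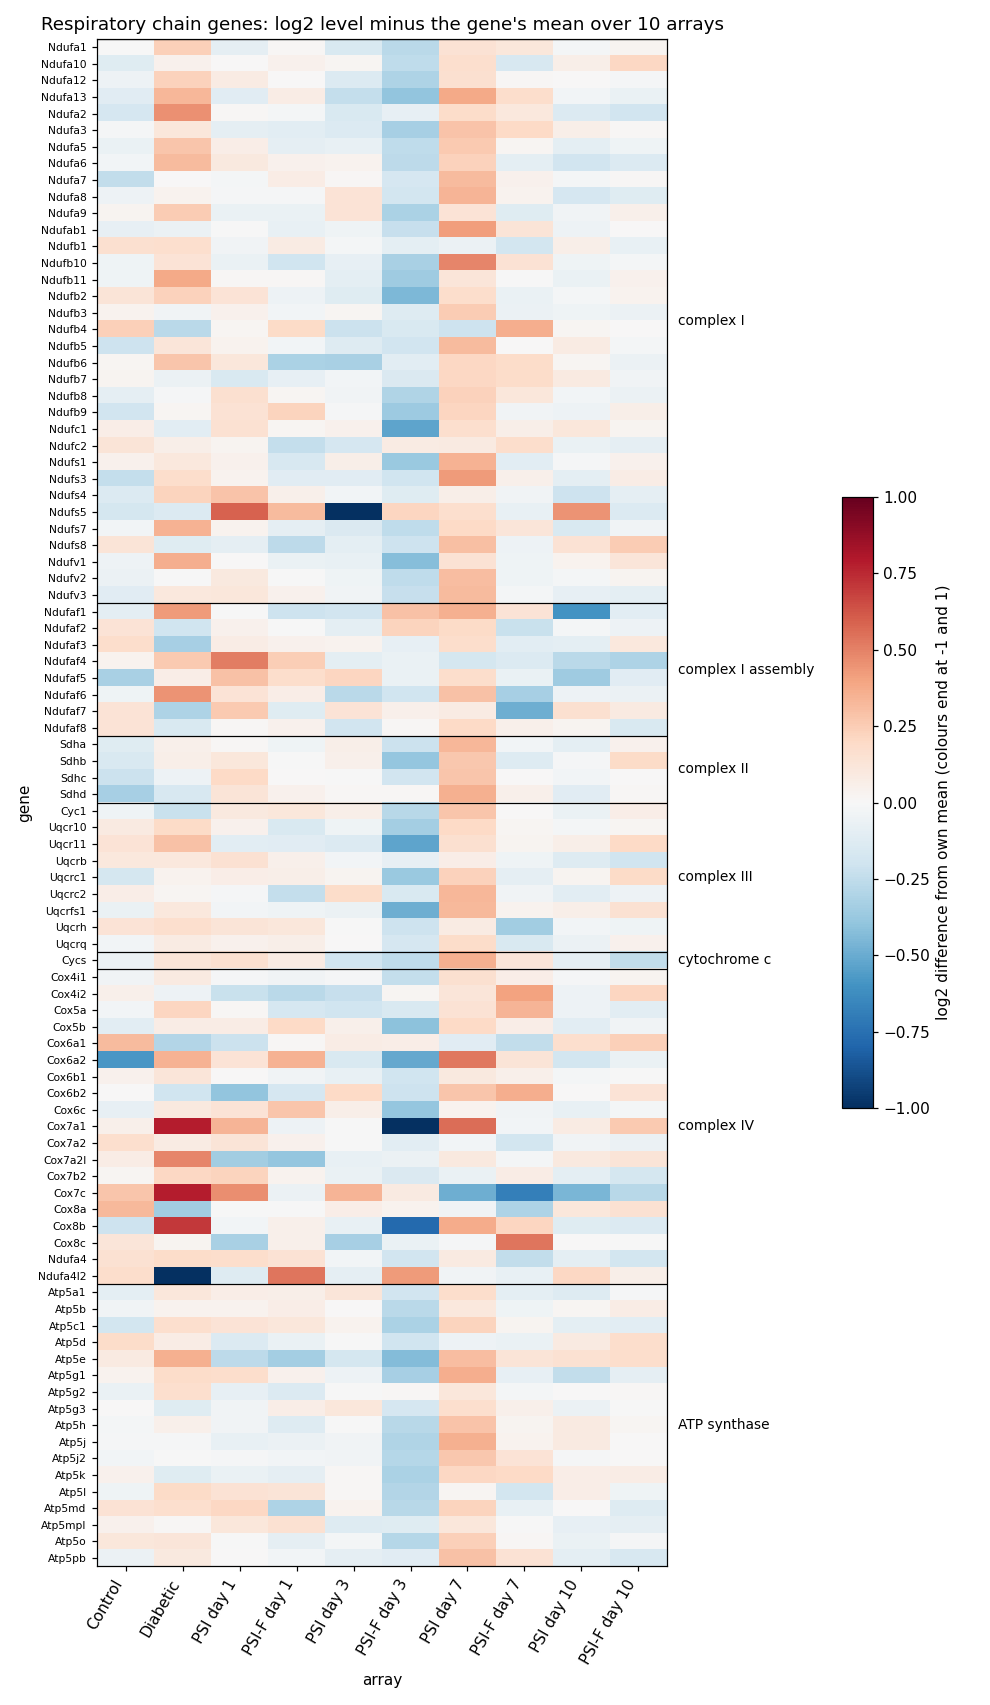
Each row is 1 of the 92 genes, grouped by complex, and each column 1 of the 10 arrays. Colour gives the log2 level minus the gene's own mean over the arrays, red above and blue below, ending at -1 and 1. The PSI-F column of day 3 is blue and the PSI column of day 7 red over most of complexes I to III and the ATP synthase.

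In several complexes the same arrays were often the lowest and the highest. The PSI-F graft of day 3 was the lowest of the 10 arrays for 50 of the 92 genes (54.3%), while it was the lowest for 9.51% of all genes and for 14.8% of the genes with a mean level above 8. By complex, these were 22 of 34 genes of complex I, 2 of 4 of complex II, 6 of 9 of complex III, 6 of 19 of complex IV and 13 of 17 of the ATP synthase, with Cycs but none of the 8 complex I assembly factors. The PSI graft of day 7 was the highest array for 44 of the 92 genes (47.8%), against 9.73% of all genes and 13.1% of the bright ones. They included 16 genes of complex I, all 4 of complex II, 6 of complex III, 3 of complex IV and 12 of the ATP synthase. The Diabetic biopsy was the highest for 25 genes (27.2%), close to the 26.7% of bright genes and above the 19.9% of all genes. These counts were noticed in the data and are given as a description, with no test.

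In size, the shifts were small. Relative to each gene's own mean, the median of the PSI-F graft of day 3 was -0.25 in complex I, -0.20 in complex II, -0.28 in complex III, -0.15 in complex IV and -0.28 in the ATP synthase. In the PSI graft of day 7 the same medians were 0.21, 0.30, 0.20, 0.10 and 0.22. Over all 18193 genes the median was -0.01 and 0.01 on these arrays.

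The skeletal muscle markers moved with the respiratory chain on both arrays. Of the 20 markers, 15 were lowest in the PSI-F graft of day 3 and 5 were highest in the PSI graft of day 7, with medians of -0.65 and 0.33 relative to their own means. In the biopsies the muscle medians were -0.34 in Control and 0.32 in Diabetic. Those of the respiratory chain genes were -0.02 and 0.10 there, so the parallel was weaker between the biopsies. The oxygen carrier myoglobin (Mb) had levels of 10.57 and 11.39 in the Control and Diabetic biopsies, 10.89, 11.10, 11.24 and 10.83 in the PSI series and 10.85, 9.33, 10.98 and 10.67 in the PSI-F series. Its level in the PSI-F graft of day 3 lay below all other arrays. All 11 hair follicle markers were also lowest in the PSI-F graft of day 3. All 6 endothelium markers and 4 of 8 fibroblast markers were highest in the PSI graft of day 7. The part of these cell types in the respiratory chain values was not tested.

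**Figure D2:**
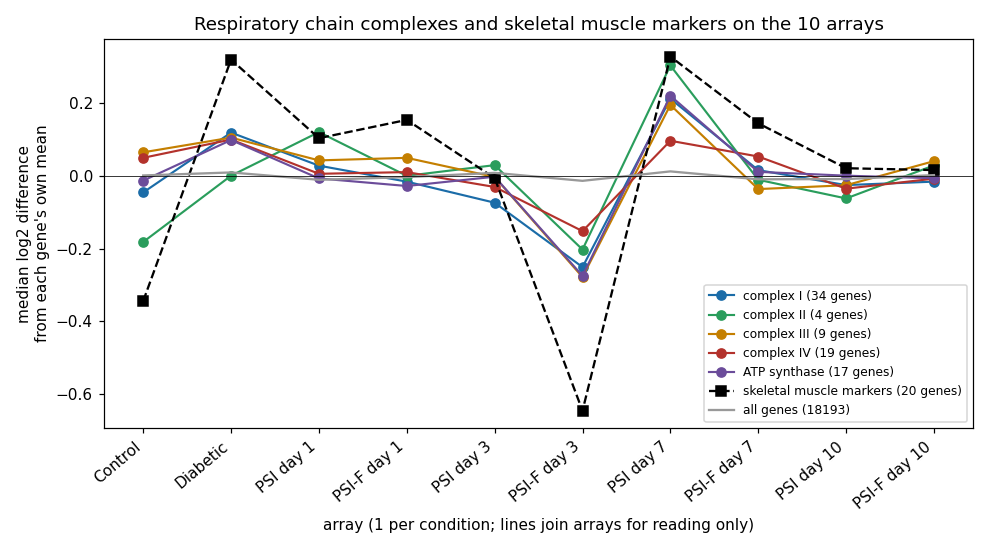
For each array on the x axis, the y axis gives the median over the genes of a group of the log2 level minus the gene's own mean. The complexes dip in the PSI-F graft of day 3 and peak in the PSI graft of day 7, where the 20 skeletal muscle markers (dashed) are at -0.65 and 0.33 and the median of all genes is near 0.

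Complex II couples the citrate cycle to the chain, and its 4 subunits were all highest in the PSI graft of day 7. Sdha, the flavoprotein that oxidises succinate, had levels of 8.32 in Control, 8.49 in Diabetic, 8.45, 8.50, 8.77 and 8.35 in PSI on days 1, 3, 7 and 10, and 8.40, 8.23, 8.42 and 8.49 in PSI-F on the same days. Sdhb, the iron-sulfur subunit, had levels of 9.03 and 9.25 in the Control and Diabetic biopsies, 9.30, 9.23, 9.46 and 9.17 in the PSI series and 9.18, 8.80, 9.06 and 9.38 in the PSI-F series. Both were lowest in the PSI-F graft of day 3.

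The membrane anchors Sdhc and Sdhd were lowest in Control. Sdhc had levels of 8.20 and 8.36 in the Control and Diabetic biopsies, 8.62, 8.41, 8.69 and 8.39 in the PSI series and 8.42, 8.22, 8.42 and 8.42 in the PSI-F series. Sdhd had levels of 7.81 and 7.98 in the Control and Diabetic biopsies, 8.27, 8.15, 8.50 and 8.03 in the PSI series and 8.18, 8.15, 8.19 and 8.15 in the PSI-F series. For Sdhd all 8 grafts lay above both biopsies, which held for 1 of the 92 genes against 8.15% of all genes, but a dimmer Sdhd probe set did not show it, with early and late grafts at -0.30 and -0.09 relative to the biopsies.

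Cycs, which carries electrons from complex III to complex IV, had levels of 10.08 in Control, 10.27 in Diabetic, 10.30, 9.94, 10.50 and 10.05 in PSI on days 1, 3, 7 and 10, and 10.23, 9.89, 10.27 and 9.90 in PSI-F on the same days. Cyc1, the cytochrome c1 of complex III, had levels of 9.46 and 9.28 in the Control and Diabetic biopsies, 9.60, 9.56, 9.78 and 9.44 in the PSI series and 9.61, 9.22, 9.50 and 9.57 in the PSI-F series. For both genes the PSI-F graft of day 3 was lowest and the PSI graft of day 7 highest.

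The clearest differences were within complex IV, between the muscle forms and the general forms of 3 subunits. Cox7a1, the muscle form of subunit VIIa, had levels of 7.85 in Control, 8.58 in Diabetic, 8.14, 7.79, 8.36 and 7.88 in PSI on days 1, 3, 7 and 10, and 7.74, 5.80, 7.77 and 8.06 in PSI-F on the same days. It was lowest in the PSI-F graft of day 3 at 5.80, while the other arrays lay between 7.74 and 8.58. Cox7a2, the general form, had levels of 10.64 and 10.56 in the Control and Diabetic biopsies, 10.61, 10.47, 10.45 and 10.44 in the PSI series and 10.52, 10.37, 10.29 and 10.42 in the PSI-F series. Its whole range was 0.35.

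Cox8b, the muscle form of subunit VIII, had levels of 8.63 and 9.55 in the Control and Diabetic biopsies, 8.81, 8.77, 9.21 and 8.72 in the PSI series and 8.89, 8.07, 9.05 and 8.71 in the PSI-F series. It was highest in Diabetic and lowest in the PSI-F graft of day 3. Cox8a, the general form, had levels of 8.19 and 7.53 in the Control and Diabetic biopsies, 7.86, 7.93, 7.84 and 7.98 in the PSI series and 7.87, 7.91, 7.56 and 8.02 in the PSI-F series. Here Control was highest and Diabetic lowest.

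Cox6a2, the muscle form of subunit VIa, had levels of 8.80 and 9.73 in the Control and Diabetic biopsies, 9.51, 9.22, 9.90 and 9.19 in the PSI series and 9.73, 8.86, 9.51 and 9.31 in the PSI-F series. Control and the PSI-F graft of day 3 were lowest. Cox6a1, the general form, had levels of 10.91 and 10.29 in the Control and Diabetic biopsies, 10.37, 10.66, 10.47 and 10.76 in the PSI series and 10.60, 10.65, 10.34 and 10.83 in the PSI-F series. As for Cox8a, Control was highest and Diabetic lowest.

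Between the biopsies, the muscle forms were higher and the general forms lower in Diabetic. The log2 difference, Diabetic minus Control, was 0.93 for Cox6a2, 0.92 for Cox8b and 0.73 for Cox7a1, against -0.61 for Cox6a1, -0.67 for Cox8a and -0.09 for Cox7a2. Second probe sets gave 1.38 for Cox6a2, -0.80 for Cox6a1, -0.27 for Cox7a2 and -0.66 for Cox8a, and a further, dim one 0.15 for Cox8a. All 20 skeletal muscle markers were higher in Diabetic, with a median of 0.65, and of 6 epidermis markers 2 were higher (Lor 0.21, Flg 0.03), with a median of -0.96 and values of -2.21 and -1.69 for the keratins Krt14 and Krt5. Of 8 adipocyte markers 2 were higher in Diabetic (median -0.46). Of 5 brown adipocyte markers 1 was, Ppargc1a at 2.65 (median -1.42). The part of these tissues in the isoform values was not tested.

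**Figure D3:**
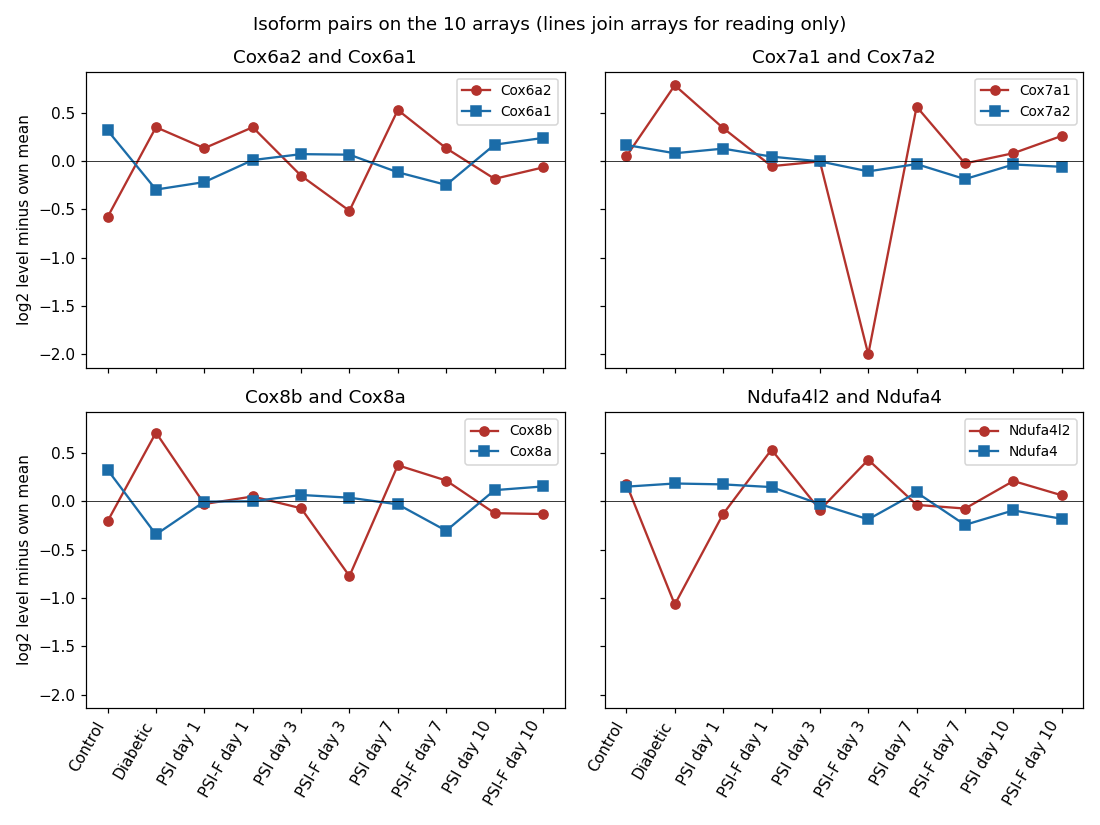
Each panel sets a pair of related genes against the 10 arrays on the x axis, with the log2 level minus the gene's own mean on the y axis. The muscle forms (red) Cox6a2, Cox7a1 and Cox8b lie above their means in Diabetic while Cox6a1 and Cox8a (blue) lie below theirs, Cox7a1 is lowest in the PSI-F graft of day 3, and Ndufa4l2 is lowest in Diabetic.

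Ndufa4l2, a paralog of Ndufa4 known to be induced by hypoxia, had levels of 6.72 in Control, 5.47 in Diabetic, 6.41, 6.45, 6.50 and 6.75 in PSI on days 1, 3, 7 and 10, and 7.08, 6.97, 6.47 and 6.60 in PSI-F on the same days. Diabetic was lowest by a wide margin and the PSI-F graft of day 1 highest. Ndufa4 itself had levels of 9.49 and 9.52 in the Control and Diabetic biopsies, 9.51, 9.31, 9.43 and 9.25 in the PSI series and 9.49, 9.15, 9.10 and 9.16 in the PSI-F series. Ndufa4l2 was the only gene of the 92 at least 2-fold apart between the biopsies, with a Diabetic minus Control difference of -1.25 (11.0% of all genes were that far apart).

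The other isoforms of complex IV had ranges under 1. Cox4i1, the general form of subunit IV, had levels of 10.59 and 10.71 in the Control and Diabetic biopsies, 10.62, 10.62, 10.79 and 10.62 in the PSI series and 10.59, 10.39, 10.69 and 10.65 in the PSI-F series. Cox6b1, the general form of subunit VIb, had levels of 10.74 and 10.82 in the Control and Diabetic biopsies, 10.70, 10.63, 10.80 and 10.68 in the PSI series and 10.66, 10.49, 10.75 and 10.69 in the PSI-F series. Both were lowest in the PSI-F graft of day 3. Cox4i2, the partner of Cox4i1, had levels of 2.88 and 2.78 in the Control and Diabetic biopsies, 2.60, 2.59, 2.95 and 2.77 in the PSI series and 2.56, 2.84, 3.23 and 3.04 in the PSI-F series. Cox6b2, the partner of Cox6b1, had levels of 3.29 and 3.09 in the Control and Diabetic biopsies, 2.89, 3.48, 3.56 and 3.29 in the PSI series and 3.12, 3.08, 3.65 and 3.43 in the PSI-F series. Both lay near the array median, so that no order can be read from them. Cox7b2 had levels of 0.83 and 1.01 in the Control and Diabetic biopsies, 1.03, 0.74, 0.74 and 0.71 in the PSI series and 0.84, 0.66, 0.88 and 0.63 in the PSI-F series. It lay below the array median throughout. Cox8c had levels of 5.25 and 5.16 in the Control and Diabetic biopsies, 4.81, 4.80, 5.12 and 5.14 in the PSI series and 5.19, 5.07, 5.67 and 5.13 in the PSI-F series. It was highest in the PSI-F graft of day 7. Cox7a2l, a factor that joins complexes III and IV, had levels of 8.82 and 9.23 in the Control and Diabetic biopsies, 8.40, 8.67, 8.84 and 8.84 in the PSI series and 8.36, 8.68, 8.73 and 8.87 in the PSI-F series. It was highest in Diabetic and lowest on day 1.

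The 3 genes for subunit c of the ATP synthase encode the same mature protein with different import sequences. Atp5g1 had levels of 8.96 and 9.11 in the Control and Diabetic biopsies, 9.10, 8.87, 9.29 and 8.67 in the PSI series and 8.96, 8.59, 8.84 and 8.83 in the PSI-F series. Atp5g2 had levels of 9.24 and 9.47 in the Control and Diabetic biopsies, 9.22, 9.30, 9.41 and 9.30 in the PSI series and 9.16, 9.31, 9.28 and 9.31 in the PSI-F series. Atp5g3 had levels of 10.86 and 10.73 in the Control and Diabetic biopsies, 10.82, 10.97, 11.02 and 10.80 in the PSI series and 10.92, 10.69, 10.90 and 10.85 in the PSI-F series. Atp5g1 and Atp5g3 followed the common pattern, lowest in the PSI-F graft of day 3 and highest in the PSI graft of day 7, while Atp5g2 was lowest in the PSI-F graft of day 1 and highest in Diabetic, within a range of 0.30.

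The first comparison asked how PSI-F grafts differed from PSI grafts. Over the 8 grafts, with the day as a block, limma called none of the 92 genes at an adjusted p under 0.05, nor any of the 18193 genes (0.0%), and the smallest adjusted p among the 92 was 0.751. At an unadjusted p under 0.05, 4 of the 92 passed, against 6.28% of all genes. Of the differences, 82 of 92 lay below 0 (PSI-F minus PSI; median -0.10), against 9835 of 18193 and -0.02 for all genes. Some other lists leaned the same way. Above 0 were 8 of 76 mitochondrial ribosomal proteins (median -0.09), 5 of 37 other assembly factors (median -0.09) and 3 of 20 skeletal muscle markers (median -0.17). Of 17 genes of the citrate cycle and pyruvate dehydrogenase, 0 were above 0 (median -0.15). Other lists did not lean down. Above 0 were 9 of 10 macrophage (median 0.25), 5 of 7 neutrophil (0.11), 6 of 8 islet (0.04) and 4 of 6 endothelium markers (0.03). Of the glycolysis and hypoxia genes, 10 of 20 were (0.00). PSI-F was below PSI on all 4 days for 18 genes (background 8.19%), among them Cycs, Cox7a2, Ndufa4, Uqcrb, Uqcrh and 5 genes of the ATP synthase, and above on all 4 days for 0 genes (background 6.6%).

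By day, the lean was largest in size on days 3 and 7. The median difference, PSI-F minus PSI, was -0.05 on day 1, -0.19 on day 3, -0.20 on day 7 and 0.03 on day 10, with 66, 75, 84 and 37 of the 92 genes below 0. For all genes the medians were -0.02, 0.00, -0.06 and 0.01. On day 7 every gene of complexes II and III and of the ATP synthase was lower in PSI-F, with medians of -0.33, -0.29 and -0.18. On day 10 all 4 genes of complex II and 7 of 9 of complex III were higher.

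At least 2-fold apart were 0 genes on days 1, 7 and 10 (background 1.13%, 1.78% and 0.731%) and 2 genes on day 3 (background 2.86%). The first was Cox7a1, at -1.99, that is 3.98-fold lower in PSI-F. Its muscle partners were at -0.70 for Cox8b and -0.36 for Cox6a2, and the general forms Cox7a2, Cox8a and Cox6a1 at -0.10, -0.03 and -0.01. Of the 20 muscle markers, 18 also lay below 0 that day (median -0.53), with values of -2.01 for Pvalb, the calcium buffer of fast fibres, and -1.77 for Mb. None of the 11 hair follicle or 8 adipocyte markers lay above 0 (medians -4.17 and -0.75). Of 5 brown adipocyte markers 1 did (-0.42), and of 8 islet markers 2 (-0.11). All 6 epidermis and all 6 endothelium markers lay above 0 (0.58 and 0.27). So did 8 of 10 macrophage, 6 of 7 neutrophil and 7 of 8 fibroblast markers (0.36, 0.77 and 0.27). The part of these cell types in the Cox7a1 value was not tested.

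The other was Ndufs5, an accessory subunit of complex I, at 1.42. Its levels were 7.48 in Control, 7.51 in Diabetic, 8.24, 6.45, 7.82 and 8.10 in PSI on days 1, 3, 7 and 10, and 7.97, 7.87, 7.58 and 7.51 in PSI-F on the same days. The PSI graft of day 3 stood 1.06 below the next lowest graft, so the difference of day 3 came from a low PSI value. Ndufs5 has 1 single-symbol probe set, and the array also lists a pseudogene, Ndufs5-ps, on a probe set with several symbols.

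**Figure D4:**
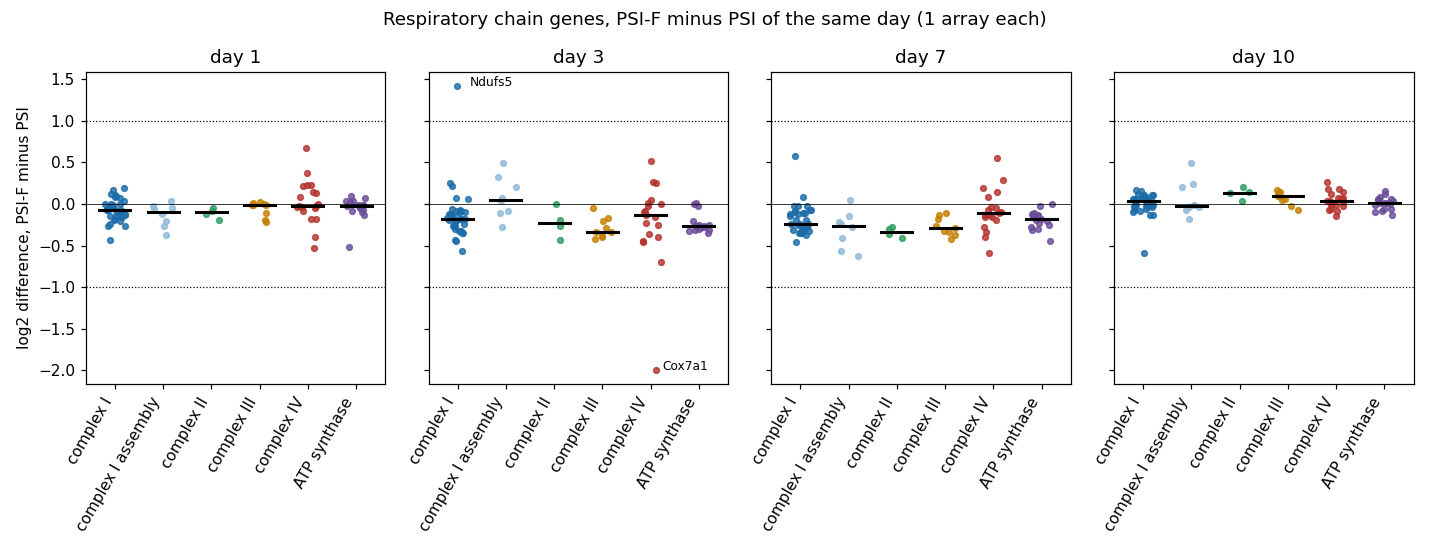
Each point is 1 gene, placed by complex, and the y axis gives its log2 difference, PSI-F minus PSI, between the pair of arrays of 1 day. Black bars are medians and dotted lines mark 2-fold. Medians lie below 0 on days 3 and 7 in all groups but the assembly factors of day 3, and Cox7a1 (-1.99) and Ndufs5 (1.42) pass 2-fold on day 3.

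The second comparison set the late grafts (days 7 and 10) against the early ones (days 1 and 3). By limma 0 of the 92 genes were called, against 0.863% of all genes, and 13 had an unadjusted p under 0.05, against 17.1%. Late grafts were higher for 72 of the 92 genes, with a median of 0.10 (0.01 for all genes). That median went to -0.01 without the PSI-F graft of day 3 and the PSI graft of day 7, the arrays at both ends. These arrays were picked by the same values, so leaving them out was bound to lower the difference and is no independent check. Of the skeletal muscle markers 16 of 20 were above 0 in the same comparison (median 0.21), of the hair follicle markers 11 of 11 (median 2.57) and of the fibroblast markers 7 of 8 (median 0.64). There were 0 calls in each of these lists. Of 7 neutrophil markers 1 was above 0 (median -0.34), and S100a8 and S100a9 were called lower, as were 0.687% of all genes. Of 10 macrophage markers 2 were above 0 (median -0.67), with 1 called lower. Of 8 islet markers 2 were above 0 (median -0.29) and of 8 adipocyte markers 7 (median 0.33), without a call. The part of these cell types in the respiratory chain time course was not tested. All 4 late grafts lay above all 4 early ones for 11 genes (background 4.12%) and below for 2 (background 6.53%).

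Nearest to a call was Atp5e, the epsilon subunit of the ATP synthase (log2 difference 0.49, SE 0.095, adjusted p = 0.0502). It had levels of 9.36 in Control, 9.62 in Diabetic, 9.01, 9.09, 9.58 and 9.42 in PSI on days 1, 3, 7 and 10, and 8.93, 8.84, 9.39 and 9.45 in PSI-F on the same days. The late grafts, 9.46 ± 0.0825 (SD, n = 4), did not overlap the early ones, 8.96 ± 0.108 (SD, n = 4). Next was Cox7c, a subunit of complex IV (log2 difference -0.69, SE 0.139, adjusted p = 0.0554). Its levels were 3.85 in Control, 4.36 in Diabetic, 4.04, 3.91, 3.08 and 3.11 in PSI on days 1, 3, 7 and 10, and 3.51, 3.66, 2.89 and 3.29 in PSI-F on the same days. The late grafts were all below the early ones, but the probe set lay close to the array median and its values say little about the amount of Cox7c RNA.

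Of the other genes with the smallest p in their complex, Uqcr11 had levels of 8.84 and 8.99 in the Control and Diabetic biopsies, 8.59, 8.55, 8.86 and 8.75 in the PSI series and 8.58, 8.17, 8.73 and 8.89 in the PSI-F series. Uqcrfs1, the Rieske iron-sulfur protein of complex III, had levels of 9.04 and 9.22 in the Control and Diabetic biopsies, 9.08, 9.05, 9.44 and 9.17 in the PSI series and 9.07, 8.62, 9.15 and 9.27 in the PSI-F series. In both genes all late grafts lay above all early ones, but neither was called, with adjusted p values by limma of 0.213 and 0.304. The core complex I subunit Ndufs8 had levels of 9.35 and 9.11 in the Control and Diabetic biopsies, 9.14, 9.13, 9.53 and 9.37 in the PSI series and 8.97, 9.02, 9.18 and 9.48 in the PSI-F series. Ndufa3, an accessory subunit, had levels of 9.82 and 9.95 in the Control and Diabetic biopsies, 9.74, 9.69, 10.12 and 9.89 in the PSI series and 9.73, 9.50, 10.03 and 9.85 in the PSI-F series. Their differences were 0.32 and 0.31, with adjusted p values by limma of 0.18 and 0.196.

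Atp5k, a small membrane subunit of the ATP synthase, had levels of 9.78 and 9.62 in the Control and Diabetic biopsies, 9.67, 9.75, 9.95 and 9.81 in the PSI series and 9.65, 9.42, 9.94 and 9.81 in the PSI-F series. Its late grafts were higher by 0.25 and did not overlap the early ones. The assembly factors of complex I with the smallest p had differences of the opposite sign. Ndufaf4 had levels of 6.40 and 6.62 in the Control and Diabetic biopsies, 6.88, 6.27, 6.19 and 6.09 in the PSI series and 6.61, 6.30, 6.23 and 6.06 in the PSI-F series. Ndufaf5 had levels of 4.95 and 5.34 in the Control and Diabetic biopsies, 5.57, 5.49, 5.45 and 4.92 in the PSI series and 5.45, 5.21, 5.21 and 5.16 in the PSI-F series. Late grafts were lower by -0.37 and -0.24, without a call.

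Of 27 poly-A control probe sets, which detect RNA added during labelling, 12 had all 4 late grafts above the early grafts and the biopsies. How far such differences in labelling enter the comparison with time was not tested. Whether the change with time differed between PSI-F and PSI was asked with an interaction term in limma: 0 of the 92 genes were called (background 0.0%), the smallest adjusted p was 1.00, and 1 gene, Ndufa4l2, had an unadjusted p under 0.05 (background 1.37%).

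The third comparison set the 8 grafts against both biopsies. Control (healthy) and Diabetic (streptozotocin-treated) were pooled in the group of biopsies, while all graft recipients had been made diabetic. Between Control and Diabetic 11.0% of all genes were at least 2-fold apart. Again 0 of the 92 genes were called by limma, against 2.85% of all genes, and 2 had an unadjusted p under 0.05, against 20.8%. These were Sdhd (log2 difference 0.31, SE 0.123, adjusted p = 0.216) and Cox7c (log2 difference -0.66, SE 0.286, adjusted p = 0.253). The median difference was -0.03 (-0.02 for all genes). In the same comparison 5 of 10 macrophage markers were called higher, as were 2.16% of all genes, and all 10 had positive differences. Other markers shifted too. Positive differences were found for 8 of 8 fibroblast (median 1.52), 6 of 6 endothelium (0.79), 7 of 8 islet (0.51) and 7 of 8 adipocyte markers (0.53). Of these, 1 fibroblast and 1 islet marker were called higher. Positive differences held for 0 of 11 hair follicle (-2.56) and 10 of 20 skeletal muscle markers (-0.0012).

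Below both biopsies in all 8 grafts were Ndufb1 and Uqcrh (background 7.37%). Ndufb1, an accessory subunit of complex I, had levels of 4.65 and 4.66 in the Control and Diabetic biopsies, 4.46, 4.47, 4.43 and 4.55 in the PSI series and 4.58, 4.39, 4.30 and 4.41 in the PSI-F series. Uqcrh, the hinge protein of complex III, had levels of 9.92 and 9.96 in the Control and Diabetic biopsies, 9.92, 9.79, 9.87 and 9.77 in the PSI series and 9.91, 9.59, 9.45 and 9.74 in the PSI-F series. The gaps between the lowest biopsy and the highest graft were small in both, and their adjusted p values by limma were 0.32 and 0.525.

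The remaining genes with the smallest p in their complex differed less. Ndufb2 of complex I had levels of 8.94 and 9.04 in the Control and Diabetic biopsies, 8.95, 8.69, 8.98 and 8.79 in the PSI series and 8.76, 8.36, 8.74 and 8.85 in the PSI-F series. The ATP synthase delta subunit Atp5d had levels of 10.20 and 10.09 in the Control and Diabetic biopsies, 9.87, 10.01, 9.96 and 10.10 in the PSI series and 9.95, 9.81, 9.94 and 10.19 in the PSI-F series. The assembly factor Ndufaf6 had levels of 5.26 and 5.75 in the Control and Diabetic biopsies, 5.44, 5.03, 5.60 and 5.25 in the PSI series and 5.37, 5.11, 4.97 and 5.24 in the PSI-F series. In all 3 genes grafts and biopsies overlapped.

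Split by time, 1 gene was called in each period. Early grafts were lower than the biopsies for Atp5e (log2 difference -0.53, SE 0.125, adjusted p = 0.0488), while 4.78% of all genes were called either way and 0.962% of all genes lower. That call was lost when any array but Control was left out. Late grafts were lower for Cox7c (log2 difference -1.01, SE 0.192, adjusted p = 0.03), against 2.83% of all genes called and 0.66% called lower. The Cox7c probe set was dim, with late levels of 2.89 to 3.29 close to the array median, so its call says little about Cox7c RNA. Without Diabetic the Cox7c difference was -0.75 and it was not called, nor was it without either array of day 7 or the PSI graft of day 10. At an unadjusted p under 0.05, 3 of the 92 genes passed in the early grafts (background 22.3%) and 2 in the late ones (background 20.0%). In the early grafts 72 of the 92 genes lay below the biopsies, with a median of -0.09, and in the late grafts 45, with a median of 0.00. Of all 18193 genes, 9846 lay below in the early grafts (median -0.03) and 9231 in the late ones (median -0.0041). The comparisons of early, late and all grafts share the biopsies.

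**Figure D5:**
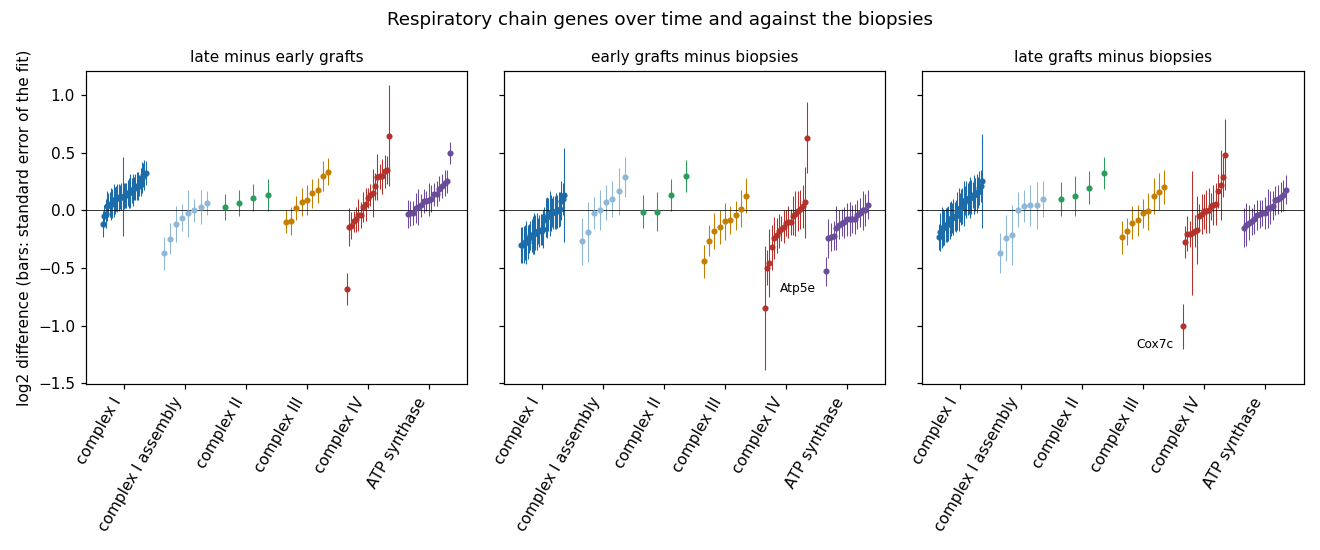
Each point is 1 gene, sorted within its complex, and the y axis gives the log2 difference in the limma fit with its standard error as a bar. Most genes lie within 0.5 of 0, and the called genes are Atp5e in the early (-0.53) and Cox7c, on a dim probe set, in the late grafts (-1.01).

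Between the biopsies alone, the respiratory chain leaned towards Diabetic. The median of Diabetic minus Control was 0.15 (0.00 for all genes) and 68 of the 92 genes were higher, with medians of 0.20 in complex I, 0.17 in complex II, 0.10 in complex III, 0.12 in complex IV and 0.07 in the ATP synthase. Of the graft arrays, the PSI-F graft of day 3 was the only one with a gene 4-fold from Diabetic or from Control, and that gene was Cox7a1 (background 4.23% from Diabetic and 3.12% from Control).

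The genes that feed the chain were followed through lists. Of 17 measured genes of the citrate cycle and pyruvate dehydrogenase, 10 were lowest in the PSI-F graft of day 3, 7 were highest in the PSI graft of day 7 and 16 were higher in Diabetic than in Control (median 0.33). None was called in any of the limma comparisons. Of 16 measured genes of fatty acid oxidation, 6 were lowest in the PSI-F graft of day 3 and 6 highest in the PSI graft of day 7, again with 0 calls. On day 7 all 17 and all 16 lay below 0 in PSI-F minus PSI, at medians of -0.31 and -0.32.

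The 76 mitochondrial ribosomal proteins did not share the pattern of extreme arrays to that extent, with 8 lowest in the PSI-F graft of day 3, 8 highest in the PSI graft of day 7 and 0 calls. Of 37 other assembly factors, 5 and 9 did, and 12 were higher in late than in early grafts (median -0.10). Of 20 genes of glycolysis and hypoxia, 2 and 2 did, and none was called. The lean of day 7 in PSI-F minus PSI was shared more widely. Only 6 of 76 ribosomal proteins (median -0.19) and 3 of 37 other assembly factors (median -0.26) lay above 0 that day. Of the glycolysis and hypoxia genes, 7 of 20 lay above 0 (median -0.05). Of the mitochondrially encoded subunits only ND5 was matched, at 11.36 to 11.73.

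Of 18 regulators of mitochondrial biogenesis, 2 were called lower in the grafts than in the biopsies by limma (0.693% of all genes were), the deacetylase Sirt1 (log2 difference -1.02, SE 0.189, adjusted p = 0.0232) and Tfb2m, a mitochondrial transcription factor (log2 difference -0.72, SE 0.155, adjusted p = 0.0407). Sirt1 had levels of 5.96 and 6.64 in the Control and Diabetic biopsies, 5.53, 5.31, 5.28 and 5.44 in the PSI series and 4.94, 5.14, 5.10 and 5.43 in the PSI-F series. Tfb2m had levels of 6.34 and 6.54 in the Control and Diabetic biopsies, 6.04, 5.84, 5.85 and 5.55 in the PSI series and 5.61, 5.86, 5.44 and 5.62 in the PSI-F series. All 8 grafts lay below both biopsies for either gene. The coactivator Ppargc1a, a driver of respiratory chain transcription, had levels of 4.11 and 6.76 in the Control and Diabetic biopsies, 4.70, 4.07, 4.67 and 3.28 in the PSI series and 3.82, 2.90, 4.39 and 3.82 in the PSI-F series. It stood 2.65 higher in Diabetic than in Control, while its paralog Ppargc1b differed by -1.91. Of the 18 regulators 13 were above 0 between the biopsies, 4 of them at least 2-fold, and 1, Ppargc1b, was at least 2-fold lower. Of all genes, 4.12% were at least 2-fold higher in Diabetic and 6.89% at least 2-fold lower. The PSI-F graft of day 3 was the lowest array for Ppargc1a, close to the array median.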

How the data were processed

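RNA of 10 samples was measured on Affymetrix mouse genome arrays. The authors deposited log2 values for each probe set after RMA, which subtracts background, equalises the distributions of the arrays by quantiles and summarises the probes. R 2.15.0 and affy 1.36.0 are listed in the submitters' processing notes. Quantile normalization removes overall shifts between arrays. Of 45101 probe sets, 34945 carry 1 gene symbol; those with several symbols (932) and the 64 controls were not used for genes. That left out 8 symbols of the rule: Ndufa11, Ndufa11b, Ndufab1-ps, Ndufb4b, Ndufb4c, Ndufs5-ps, Ndufs6 and Ndufs6b.

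The tests used limma 3.58.1 (R 4.3.3) on all probe sets but the controls, with Benjamini-Hochberg adjustment over all of them, and an adjusted p under 0.05 was a call. PSI-F minus PSI had the day as a block. Early and late grafts were set against the biopsies in 1 fit of 3 groups. Single arrays were compared by a 2-fold threshold without a test. The number of arrays limits the precision. The fits were tested on simulated data with known log2 changes, 50 probe sets for each size. At a change of 0.5, 0 were recovered for PSI-F minus PSI, 4 for late minus early grafts and 3 for grafts minus biopsies. At 1.0 these were 17, 33 and 29, and 0 for the interaction. Results of 0 calls therefore do not show that changes of this size were absent. Tables were made with pandas 2.3.3 and numpy 2.4.6 in Python 3.11.15, and figures with matplotlib 3.10.9.

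Values on all arrays were given for isoform pairs, for complex II, Cycs and Cyc1, for the 2 genes of each complex with the smallest p in grafts minus biopsies and in late minus early grafts, and for genes 2-fold apart on any day. The genes and lists were chosen with earlier results of these data known. Ppargc1a, Ppargc1b, Mb, Pvalb, S100a8, S100a9 and the markers of epidermis, adipocytes and brown adipocytes were named after their values were seen. So were the other cell type markers set beside Cox7a1 on day 3, and several of those set beside the limma comparisons. Alternatives were cyclic loess, a filter on dim probe sets, the mean of a gene's probe sets, an intensity trend, fits of only the arrays compared, other thresholds, no day block, and leaving out each array. Leaving out both extreme arrays was added after seeing the data.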

Additional observations from a re-analysis of the deposited data

Results flagged for a closer look

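Of 75 sets of levels tested for an array far from the rest of its group, 11 stood apart by Dixon's criterion, which chance meets in about 1 of 20 groups. None was weighed further, and several are the same array. The sets overlap, and some genes, such as Ndufs5, were included because of a large difference between arrays. The count of 11 therefore cannot be set against that rate. The PSI-F graft of day 3 was far below the other early grafts in Cox7a1 (5.80, next 7.74), Cox8b (8.07, next 8.77), Cyc1 (9.22, next 9.56) and the median of complex III (8.77, next 9.07). It was also far below the other 7 grafts in Cox7a1 (5.80), Cox8b (8.07, next 8.71) and the median of the ATP synthase (9.45, next 9.75).

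The PSI graft of day 3 was far below the other grafts in Ndufs5 (6.45, next 7.51), and the PSI-F graft of day 7 in Cox8a (7.56, next 7.84). The PSI graft of day 7 was far above the other late grafts in Sdhc (8.69, next 8.42), and the PSI graft of day 1 above the other early grafts in the median of the complex I assembly factors (5.54, next 5.41).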

How the results depend on the processing

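No difference past a threshold changed sign under any alternative run, but medians have no threshold and some near 0 changed sign. When leaving out 1 array, the median of grafts minus biopsies ran from -0.111 to 0.0041. That of late grafts minus biopsies ran from -0.056 to 0.072. The 50 genes lowest in the PSI-F graft of day 3 became 53 with cyclic loess and 55 with gene means, and the 44 highest in the PSI graft of day 7 became 45 and 37 (added after seeing the data). For late minus early grafts, 1 gene in place of 0, Atp5e, was called with cyclic loess, the dim filter, gene means or the intensity trend. The median of 0.10 became -0.0095 without the PSI-F graft of day 3 and the PSI graft of day 7. That drop was built in, since these arrays were picked as the extremes of the same values. For early grafts minus biopsies the 1 call became 0 with cyclic loess, the intensity trend, only the 6 arrays compared or a 2-fold minimum, and 0 to 3 when leaving out 1 array, with 3 (Atp5e, Cox7a2l, Ndufa4l2) without Control and 0 without any other. For late grafts minus biopsies the 1 call became 0 with only the 6 arrays, and 0 to 2 when leaving out 1 array, with 2 (Cox7c, Ndufa4l2) without Control and 0 without Diabetic, either array of day 7 or the PSI graft of day 10. For all grafts minus biopsies leaving out 1 array gave 0 to 1 calls, the 1 being Ndufa4l2 without Control. The interaction median of 0.05 ran from -0.063 to 0.18 when leaving out 1 array. The 1 gene 2-fold apart between the biopsies became 0 at 4-fold and 2 (Cox6a2, Ndufa4l2) with gene means, and the 2 of day 3 became 0 at 4-fold. For PSI-F minus PSI, the fit with no replicate block (the day) again gave 0 calls and a median of -0.10. The cause of these changes was not tested, beyond fewer arrays in the smaller fits. With 1 array a condition, differences of the usual size here, about 0.2, cannot be set against a spread within a condition, and levels near the array median are unreliable.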
